A study of Mus musculus with 17 samples.

Results

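Histones are the proteins around which DNA is wound, and the genes described here are those made mainly for newly replicated DNA together with the linker histones. The set held every row of the deposited table whose Entrez gene number maps, by current or older symbol, to the clustered histone names (Hist1 to Hist4, H2ac, H2bc, H3c, H4c) or to a linker histone (H1f). It came to 72 of the 24013 rows in the table, with 10 rows of linker histone H1, 18 of H2A, 19 of H2B, 12 of H3 and 13 of H4. The rule used names and no measured value.

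H2A, H2B, H3 and H4 form the core of the nucleosome, and H1 binds the DNA between nucleosomes. Replication-dependent histone genes sit in gene clusters, are transcribed mostly in S phase under the coactivator NPAT, and give mRNAs that end in a stem-loop bound by SLBP instead of a poly(A) tail. Whether the amplification of cDNA copied such mRNAs as well as polyadenylated ones was not tested. The testis is known for additional histones, among them the H2A and H2B variants encoded by the neighbouring genes H2ac1 and H2bc1 and the linker histones encoded by H1f6 and H1f7, which germ cells make as they pass through meiosis and spermiogenesis.

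RNA sequencing covered 17 libraries of cells sorted from mouse testis, all on a mixed B6/J and B6/N background. All were heterozygous for the Tert-Tomato reporter, so no group lacks the reporter allele. KITpos cells (n = 5) were TERT-high and Kit-positive and came from adults. P6gonocyte cells (n = 4) were TERT-positive and OCT4-GFP-positive gonocytes from neonates of day 6. GFRA1pos cells (n = 4) and GFRA1neg cells (n = 4) were TERT-high and Kit-negative adult cells, with or without the receptor GFRA1 on their surface. Kit marks differentiating spermatogonia and GFRA1 marks the least differentiated undifferentiated ones. The age of the adults, and whether replicates of a group came from separate animals, are not given in the labels, so p-values measure the spread between these libraries. P6gonocyte cells differ from GFRA1pos cells in age, reporter and gate at once, and these cannot be told apart. In bulk libraries such as these, fewer cells of a type and less RNA per cell cannot be told apart either.

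Totals ran from 5178352 to 12641907 counts per library. Levels are in CPM, the counts scaled to an equal total by TMM-scaled library size, where the floor of 3 counts stood at 0.24 to 0.52 CPM in a library. All 72 histone genes passed the filter on low counts, among 15451 genes tested with edgeR's quasi-likelihood test, and a gene was called at a Benjamini-Hochberg adjusted p under 0.05. The 1 most abundant row of each library took 9.62% to 29.9% of its counts, so a CPM depends in part on that row. Summed germ cell markers stood at 1070.0 to 1342 CPM in KITpos libraries, 1670.0 to 2162 CPM in P6gonocyte libraries, 1508 to 1809 CPM in GFRA1pos libraries and 1204 to 1640.0 CPM in GFRA1neg libraries. Spermatid markers stood at 274 to 1036 CPM in KITpos, 7.09 to 9.44 CPM in P6gonocyte, 63.0 to 1502 CPM in GFRA1pos and 294 to 1343 CPM in GFRA1neg libraries, so post-meiotic transcripts were present in every adult group and varied within it. Leydig cell markers reached 21.8 to 98.9 CPM in KITpos libraries and 9.77 to 26.5 CPM in GFRA1neg libraries, with 5 of 6 tested markers called higher. The part of these other transcripts in the results below was not tested.

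Histone genes are close copies of each other, which limits what a count for a single gene means. H2ac18 and H2ac19 had identical counts in every library, and so did H3c14 and H3c15, and H2bc23 and H4bc24, the last of which is an H2B gene by its older name Hist1h2br. These 6 rows therefore hold 3 measurements, which left 69 distinct rows, and each set was counted once in every summed level below. H2ac23 and H2ac24 had nearly the same values in every library. Of the 71 members with a transcript in the GENCODE annotation, 56 shared at least 1 stretch of 101 bases, the read length, with another member, and 24 shared over 50% of such stretches. The median share was 0% for H1, 64.4% for H2A, 31.8% for H2B, 39.5% for H3 and 18.8% for H4. How reads that match several genes were counted is not given in the sources used here. H2ac1, H1f1, H1f5, H2bu2, H4c4 and H4c14 shared no such stretch, and H2bc14 shared 6.37%, so their counts are the ones least touched by this.

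The promoters of 8 members described below are shown first, chosen after their values were seen so that both directions of change are included. Each is the 150 bases before the annotated start in RefSeq's GRCm38.p6 assembly, 5′ to 3′ on the gene's strand. Capitals mark, on either strand, the CCAAT box, the octamer ATTTGCAT, the TATA box TATAAA and the H1 box AAACACA. H2bc14, H2ac1, H1f1 and H2ac23 were higher in KITpos cells than in both Kit-negative groups, H2bc9 and H4c6 were lower in KITpos cells than in both, and H3c13 and H4c4 were highest in GFRA1pos cells.
H2bc14 (chr13:21721894-21722043, plus strand): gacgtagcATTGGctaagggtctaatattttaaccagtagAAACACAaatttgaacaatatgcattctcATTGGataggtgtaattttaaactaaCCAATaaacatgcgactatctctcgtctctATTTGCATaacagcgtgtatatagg
H2ac1 (chr13:23934287-23934436, plus strand): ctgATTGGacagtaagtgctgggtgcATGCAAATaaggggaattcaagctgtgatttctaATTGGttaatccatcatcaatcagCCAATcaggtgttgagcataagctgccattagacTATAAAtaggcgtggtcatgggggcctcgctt
H1f1 (chr13:23763518-23763667, plus strand): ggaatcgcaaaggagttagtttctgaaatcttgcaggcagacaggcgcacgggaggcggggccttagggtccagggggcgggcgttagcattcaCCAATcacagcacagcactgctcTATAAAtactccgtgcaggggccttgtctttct
H2ac23 (chr13:21810217-21810366, plus strand): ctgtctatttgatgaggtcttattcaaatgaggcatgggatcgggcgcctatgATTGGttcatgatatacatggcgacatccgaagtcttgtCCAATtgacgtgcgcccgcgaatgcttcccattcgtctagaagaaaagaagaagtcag
H2bc9 (chr13:23543445-23543594, minus strand): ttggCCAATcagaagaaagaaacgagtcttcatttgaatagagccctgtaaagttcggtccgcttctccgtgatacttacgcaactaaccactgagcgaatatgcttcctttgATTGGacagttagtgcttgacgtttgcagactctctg
H4c6 (chr13:23551669-23551818, minus strand): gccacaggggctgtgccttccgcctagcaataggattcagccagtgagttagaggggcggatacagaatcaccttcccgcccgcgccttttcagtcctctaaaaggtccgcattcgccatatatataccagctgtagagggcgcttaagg
H3c13 (chr3:96268504-96268653, plus strand): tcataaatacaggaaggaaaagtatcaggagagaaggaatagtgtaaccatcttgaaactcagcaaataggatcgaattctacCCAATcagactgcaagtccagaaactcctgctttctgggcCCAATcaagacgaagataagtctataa
H4c4 (chr13:23581418-23581567, plus strand): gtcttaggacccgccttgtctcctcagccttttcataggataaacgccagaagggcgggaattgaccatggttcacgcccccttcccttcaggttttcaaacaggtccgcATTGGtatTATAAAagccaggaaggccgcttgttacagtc

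A RefSeq promoter was matched for 66 of the 72 members. The CCAAT box was found in 18 of 18 H2A and 16 of 16 H2B promoters, 7 of 10 H1, 8 of 10 H3 and 3 of 12 H4 promoters, against 25.3% of 27025 promoters of the same length. The octamer, which OCT factors bind, was found in 5 of 18 H2A and 5 of 16 H2B promoters and in none of the H1, H3 or H4 promoters, against 1.02% of all. The TATA box was found in 24 of 66 promoters, against 8.08% of all, and the H1 box in 5 of 10 H1 promoters, against 3.5% of all. Both strands were searched, matches of different motifs overlapped in 0 of the 66 promoters, and a match describes letters in the window and not a bound site. In the 10 head-to-head H2A and H2B pairs described below, starts lay 164 to 281 bases apart, so the windows of a pair overlap. There 1 match can count for both genes, and the H2A and H2B counts are not independent. H4c6, printed above, held none of these 4 motifs.

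The histone types differed in which sorted group held the most of their transcripts. Summed H2B stood at 7715, 7441, 4007, 14592 and 4344 CPM in KITpos libraries, at 1857, 2798, 1417 and 1816 CPM in P6gonocyte libraries, at 2309.6, 2857, 2334 and 1806 CPM in GFRA1pos libraries, and at 1394, 1762, 1443 and 771 CPM in GFRA1neg libraries. Every KITpos library lay above every library of the other groups. Summed H4 stood at 735, 458, 332.5, 839 and 218 CPM in KITpos libraries, at 239.7, 374, 245 and 223 CPM in P6gonocyte libraries, at 946, 987, 1046 and 733 CPM in GFRA1pos libraries, and at 551, 542, 582 and 327 CPM in GFRA1neg libraries. Here the KITpos range covered that of GFRA1neg, overlapped that of GFRA1pos and reached down below P6gonocyte.

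H1 summed to 1736 ± 565 CPM in KITpos, 460.4 ± 118 CPM in P6gonocyte, 531 ± 98.4 CPM in GFRA1pos and 344 ± 117 CPM in GFRA1neg libraries (SD, n = 5, 4, 4 and 4). H2A summed to 4277 ± 2144 CPM in KITpos, 876 ± 217 CPM in P6gonocyte, 1530.4 ± 277 CPM in GFRA1pos and 809 ± 239 CPM in GFRA1neg libraries (same n). H3 summed to 228 ± 111 CPM in KITpos, 216 ± 28.7 CPM in P6gonocyte, 449.7 ± 63.4 CPM in GFRA1pos and 155 ± 38.4 CPM in GFRA1neg libraries (same n). Set against GFRA1neg, the KITpos means were 5.05-fold for H1, 5.29-fold for H2A and 5.67-fold for H2B, with no overlap, but 1.47-fold for H3 and 1.03-fold for H4, with overlap. The P6gonocyte mean was 0.48 of the GFRA1pos mean for H3 and 0.292 of it for H4, with no overlap, while H1, H2A and H2B overlapped. No test was run on these sums, because their members were chosen together.

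**Figure D1:**
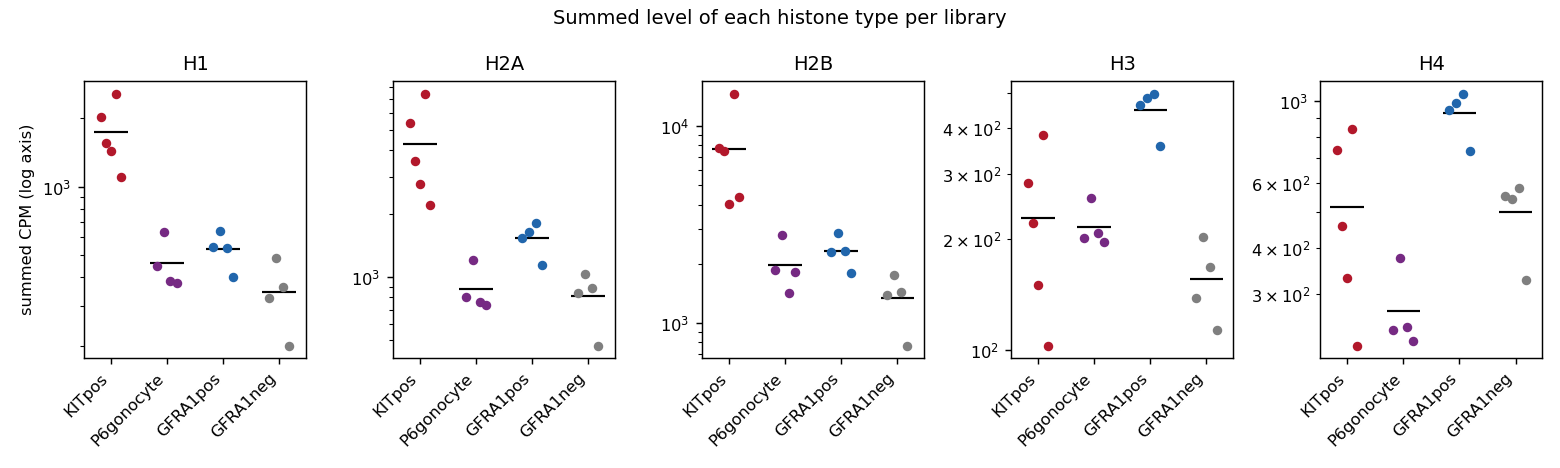
Summed level of each histone type in each library (points, CPM, log axis) with the group mean (bar), for KITpos (n = 5), P6gonocyte, GFRA1pos and GFRA1neg (n = 4 each). H1, H2A and H2B were highest in all 5 KITpos libraries, whereas the means of H3 and H4 were highest in GFRA1pos, at 449.7 and 928 CPM.

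A ratio of 2 histone types within a library does not depend on the library's scaling. The ratio of summed H2B to summed H4 counts was 10.5, 16.3, 12.1, 17.4 and 19.96 in KITpos libraries, 7.75, 7.47, 5.79 and 8.13 in P6gonocyte libraries, 2.44, 2.9, 2.23 and 2.46 in GFRA1pos libraries, and 2.53, 3.25, 2.48 and 2.36 in GFRA1neg libraries. All KITpos libraries exceeded all P6gonocyte libraries, which exceeded all GFRA1pos and GFRA1neg libraries, and the last 2 groups overlapped. Without H4c4, which held 293 of the 516 CPM of summed H4 in KITpos and 194 of the 271 CPM in P6gonocyte libraries, the ratio ran from 21.7 to 51.5 in KITpos, 21.4 to 29.9 in P6gonocyte, 7.30 to 8.63 in GFRA1pos and 6.44 to 8.59 in GFRA1neg libraries, so that KITpos and P6gonocyte then overlapped. H2A over H4 also put KITpos above P6gonocyte and P6gonocyte above both Kit-negative adult groups. Its means were 8.49 ± 1.06 in KITpos, 3.24 ± 0.107 in P6gonocyte, 1.64 ± 0.0646 in GFRA1pos and 1.60 ± 0.207 in GFRA1neg libraries (SD, n = 5, 4, 4 and 4). H3 over H4 gave another order, with 0.449 ± 0.0374 in KITpos, 0.814 ± 0.084 in P6gonocyte, 0.485 ± 0.00665 in GFRA1pos and 0.315 ± 0.0553 in GFRA1neg libraries (same n). These ratios compare groups for a fixed set of genes and are not relative amounts of the histones, since they are not corrected for transcript length or for shared sequence.

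**Figure D2:**
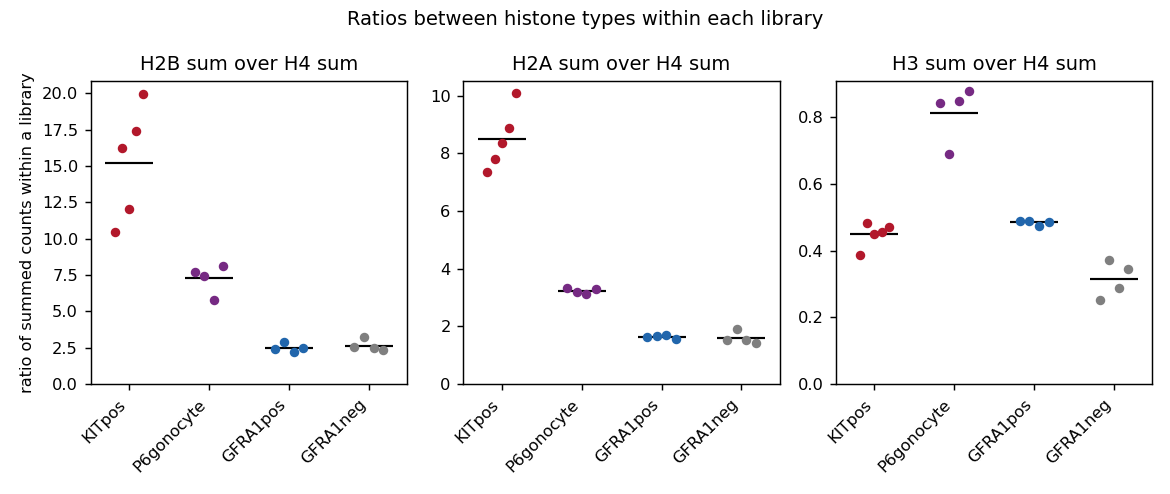
Ratio of the summed counts of H2B, H2A and H3 to those of H4 within each library (points, linear axis from 0) with the group mean (bar), for KITpos (n = 5), P6gonocyte, GFRA1pos and GFRA1neg (n = 4 each). H2B over H4 averaged 15.2 in KITpos, 7.28 in P6gonocyte, 2.51 in GFRA1pos and 2.66 in GFRA1neg libraries.

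KITpos minus GFRA1neg compares Kit-positive with Kit-negative, GFRA1-negative adult cells. Among all genes tested 45.1% were called, 22.1% higher and 23% lower in KITpos cells, and of the 72 histone genes 39 were higher and 5 lower. The rises fell on 5 of 10 H1, 14 of 18 H2A, 14 of 19 H2B, 5 of 12 H3 and 1 of 13 H4 genes. Median log2 fold changes were 1.04 for H1, 2.20 for H2A, 2.36 for H2B, 0.71 for H3 and 0.22 for H4, beside 0.03 over all genes tested. The 5 genes that fell were H2ac21, H2bc9, H2bc18, H3c6 and H4c6. Among the 22 members with at most 10% of shared stretches, 8 were higher and 3 lower. They held 5 H2A genes, 2 higher and 1 lower, and 5 H2B genes, 2 higher and 2 lower, beside 14 of 18 and 14 of 19 higher over all H2A and H2B genes. The medians of these 5 H2A and 5 H2B genes were 0.72 and -0.97. Without KITpos replicates 2 and 4, a choice made after the data were seen, 28 genes were higher.

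The largest rise was that of H2bc14, a core H2B gene. It stood at 2027, 1848, 1187, 3915 and 1178 CPM in KITpos libraries, at 248, 363, 189 and 273 CPM in P6gonocyte libraries, at 184, 235, 222 and 154 CPM in GFRA1pos libraries, and at 113, 143, 146 and 67.2 CPM in GFRA1neg libraries. The lowest KITpos library was above all others. Its log2 fold change was 4.12 ± 0.36 against GFRA1neg (SE, adjusted p = 3.3e-08, edgeR) and 3.35 ± 0.34 against GFRA1pos (adjusted p = 2.1e-07, edgeR).

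H2ac1 and H2bc1 encode the testis H2A and H2B and start 281 bases apart on opposite strands. H2ac1 stood at 1339, 1007, 824, 2248.5 and 741 CPM in KITpos libraries, 78.0, 130.5, 68.1 and 66.5 CPM in P6gonocyte libraries, 129, 134, 130.02 and 102 CPM in GFRA1pos libraries, and 107, 94.1, 114 and 29.4 CPM in GFRA1neg libraries. KITpos libraries were all above the rest, with a log2 fold change of 3.84 ± 0.39 against GFRA1neg (SE, adjusted p = 2.3e-07, edgeR) and 3.32 ± 0.38 against GFRA1pos (adjusted p = 8.5e-07, edgeR). H2bc1 stood at 103, 84.9, 71.3, 148 and 74.0 CPM in KITpos libraries, 17.5, 22.7, 13.4 and 7.01 CPM in P6gonocyte libraries, 69.9, 88.1, 80.9 and 52.5 CPM in GFRA1pos libraries, and 112, 110.0, 73.9 and 27.9 CPM in GFRA1neg libraries. The 3 adult groups overlapped and the P6gonocyte libraries lay below all of them. H2bc1 was not called between KITpos and GFRA1neg, at 0.25 ± 0.34 (SE, adjusted p = 0.58, edgeR), and it fell in P6gonocyte against GFRA1pos cells, with a log2 fold change of -2.26 ± 0.38 (SE, adjusted p = 0.00021, edgeR). H2bc1 shares 27.1% of its stretches of the read length, 77 of them with H4bc24, while H2ac1 shares 0%. H4bc24 averaged 1690 CPM in KITpos and 294 CPM in GFRA1neg libraries. The part of shared reads in the H2bc1 level was not tested.

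Among the 66 members with a matched promoter, 10 such head-to-head pairs had starts within 500 bases, and each joined an H2A gene to an H2B gene. In 9 of these 10 pairs both genes were higher in KITpos than in GFRA1neg cells, and H2ac1 with H2bc1 was the exception. Over all members 14 of 18 H2A and 14 of 19 H2B genes were higher, beside 22.1% of all genes tested. Many of these genes share stretches of the read length with other members, so the pairs are not independent measurements. H2bc4, H2bc21 and H2bu1-ps, each beside an H2A gene, had no matched promoter and were not searched. In none of these cases were both neighbours called higher in KITpos minus GFRA1neg. H2bc13 and H2ac13, whose starts lie 229 bases apart, had log2 fold changes of 2.83 and 2.33. H2ac23 and H2bc23 lie 168 bases apart and had 2.31 and 2.52, but H2bc23 cannot be told apart from H4bc24, the partner of H2ac24. H2ac11 and H2bc11, 249 bases apart, differed more, at 2.32 and 1.17.

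**Figure D3:**
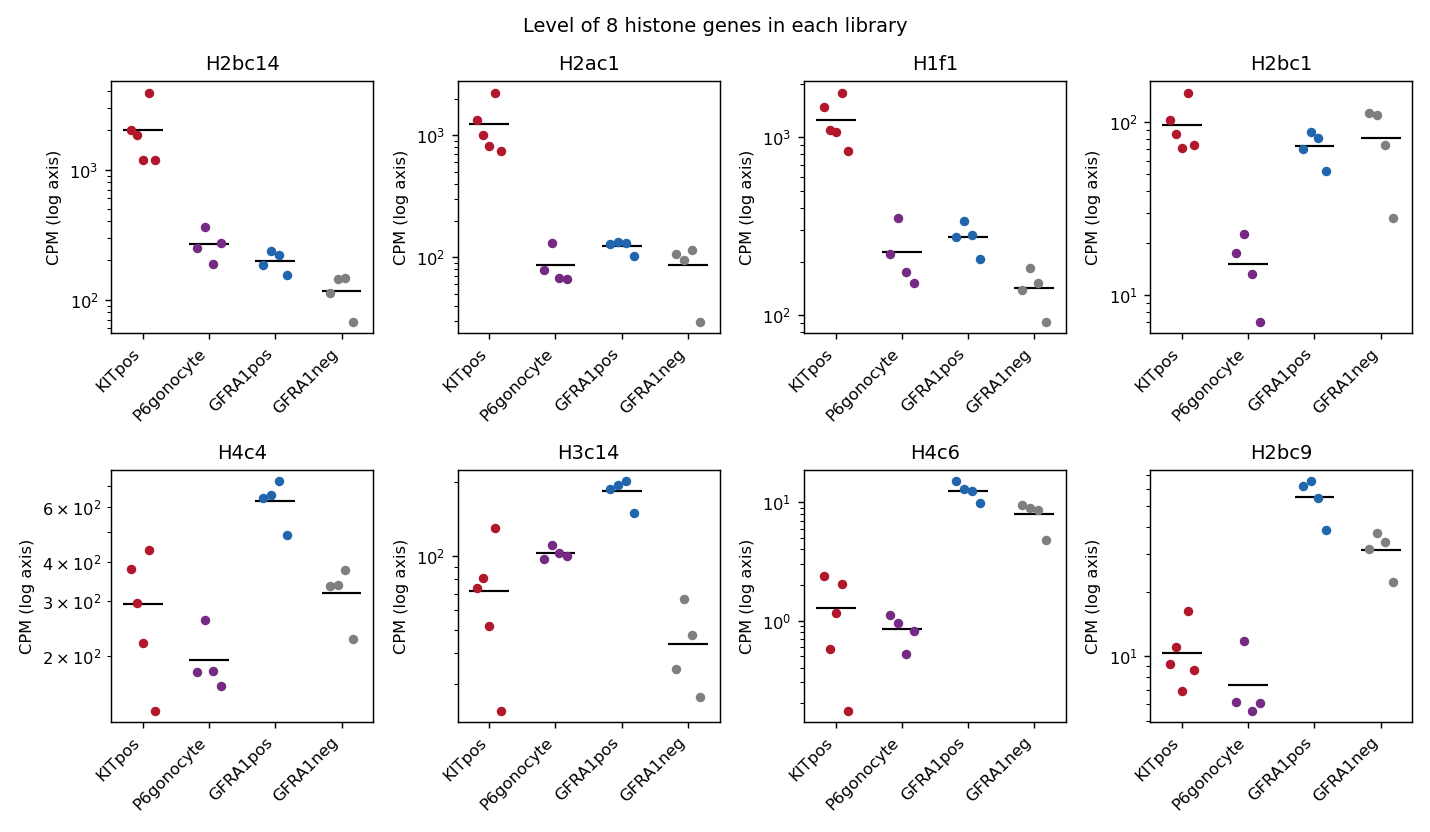
Level of 8 histone genes in each library (points, CPM, log axis) with the group mean (bar), for KITpos (n = 5), P6gonocyte, GFRA1pos and GFRA1neg (n = 4 each). H2bc14, H2ac1 and H1f1 were highest in KITpos, H2bc1 was lowest in P6gonocyte, H4c4 and H3c14 were highest in GFRA1pos, and H4c6 and H2bc9 were lower in KITpos and P6gonocyte than in both Kit-negative adult groups.

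H2B.U genes, which lie on chromosome 11 apart from the main clusters, were higher in KITpos than in GFRA1neg cells, as most H2B genes were. H2bu2 stood at 99.97, 65.7, 45.8, 100.3 and 36.6 CPM in KITpos libraries, 12.5, 16.1, 7.66 and 6.73 CPM in P6gonocyte libraries, 10.4, 10.8, 9.66 and 4.98 CPM in GFRA1pos libraries, and 7.71, 14.1, 7.16 and 4.94 CPM in GFRA1neg libraries. KITpos libraries were again all above the others, and the log2 fold change against GFRA1neg was 3.03 ± 0.38 (SE, adjusted p = 2.8e-06, edgeR). H2bu1-ps, annotated as a pseudogene, had a log2 fold change of 3.17 ± 0.45 (adjusted p = 1.2e-05, edgeR). Neither rise was lost when any 1 KITpos or GFRA1neg library was left out.

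H2bc9, H4c6 and H2ac21 went the other way. H2bc9 stood at 9.24, 11.02, 6.87, 16.2 and 8.66 CPM in KITpos libraries, 6.11, 11.8, 5.59 and 6.05 CPM in P6gonocyte libraries, 61.8, 65.3, 54.6 and 38.8 CPM in GFRA1pos libraries, and 31.4, 37.7, 34.0 and 22.1 CPM in GFRA1neg libraries. KITpos and P6gonocyte overlapped with each other and lay below both Kit-negative adult groups. Its log2 fold change was -1.59 ± 0.26 for KITpos against GFRA1neg (SE, adjusted p = 4.8e-05, edgeR), -2.41 ± 0.26 for KITpos against GFRA1pos (adjusted p = 4.0e-07, edgeR) and -2.90 ± 0.29 for P6gonocyte against GFRA1pos (adjusted p = 2.5e-06, edgeR).

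H4c6, a core H4 gene, stood at 2.38, 0.58, 1.17, 2.05 and 0.173 CPM in KITpos libraries, 1.11, 0.962, 0.517 and 0.825 CPM in P6gonocyte libraries, 15.1, 12.9, 12.6 and 9.8 CPM in GFRA1pos libraries, and 9.5, 8.88, 8.67 and 4.84 CPM in GFRA1neg libraries. The 9 KITpos and P6gonocyte libraries were all below the 8 others, and the lowest KITpos value is under the floor of 3 counts. Log2 fold changes were -2.64 ± 0.43 against GFRA1neg (SE, adjusted p = 5.1e-05, edgeR) and -3.30 ± 0.43 against GFRA1pos (adjusted p = 4.2e-06, edgeR) for KITpos, and -3.88 ± 0.48 against GFRA1pos for P6gonocyte (adjusted p = 2.0e-05, edgeR). H2ac21, an H2A gene of the chromosome 3 cluster, stood at 0.341 to 2.80 CPM in KITpos, 3.61 to 4.69 CPM in P6gonocyte, 10.7 to 19.1 CPM in GFRA1pos and 3.85 to 8.80 CPM in GFRA1neg libraries, and fell in KITpos against GFRA1neg cells, with a log2 fold change of -2.32 ± 0.40 (SE, adjusted p = 0.00011, edgeR). H4c11 was the 1 H4 gene called higher in KITpos than in GFRA1neg cells, at 1.11 ± 0.40 (SE, adjusted p = 0.029, edgeR), and it was not called without KITpos replicate 1 (adjusted p = 0.138), KITpos replicate 4 (0.0781) or GFRA1neg replicate 4 (0.0995).

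**Figure D4:**
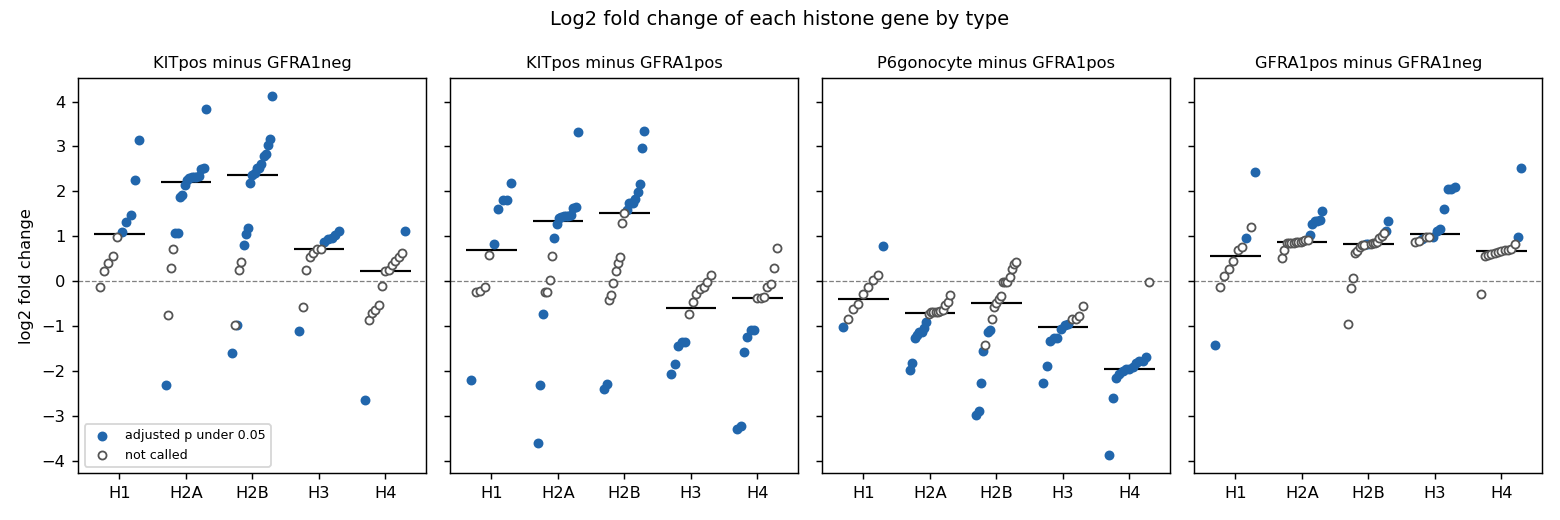
Log2 fold change of each of the 72 histone genes by type in the 4 comparisons (points, filled where the adjusted p was under 0.05) with the median of the type (bar). H1f7 in P6gonocyte minus GFRA1pos is counted in its median and not drawn, because it had 0 counts in P6gonocyte libraries. H2A and H2B lie high in KITpos minus GFRA1neg, with medians of 2.20 and 2.36, and H4 lies low in P6gonocyte minus GFRA1pos, with a median of -1.95.

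KITpos libraries also differed among themselves, and 3 core H2B genes split them. H2bc4 stood at 7.14, 107, 5.71, 222 and 4.33 CPM in KITpos libraries 1 to 5, H2bc7 at 48.3, 280.0, 26.1, 589 and 33.6 CPM, and H2bc8 at 173, 631, 87.0, 1295 and 112 CPM. Replicates 2 and 4 were high in all 3 genes. The lower of these 2 libraries exceeded the highest of the other 3 15.0-fold in H2bc4, 5.80-fold in H2bc7 and 3.66-fold in H2bc8, and 12 of the members had replicates 2 and 4 above the rest at all, the next largest gap being 1.32-fold in H2bc6. H2bc4 and H2bc8 share 205 stretches of the read length, so the 3 genes are not independent measurements. H2bc4 was not called between KITpos and GFRA1neg, at 0.42 ± 0.77 (SE, adjusted p = 0.70, edgeR), and stood at 11.2, 9.26, 7.35 and 19.5 CPM in P6gonocyte libraries, 91.2, 119, 95.7 and 66.9 CPM in GFRA1pos libraries and 51.2, 66.7, 57.2 and 31.6 CPM in GFRA1neg libraries. KITpos replicates 1, 3 and 5 lay below the lowest P6gonocyte library, replicate 2 lay within the GFRA1pos range and replicate 4 above it. The labels give nothing that sets replicates 2 and 4 apart.

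**Figure D5:**
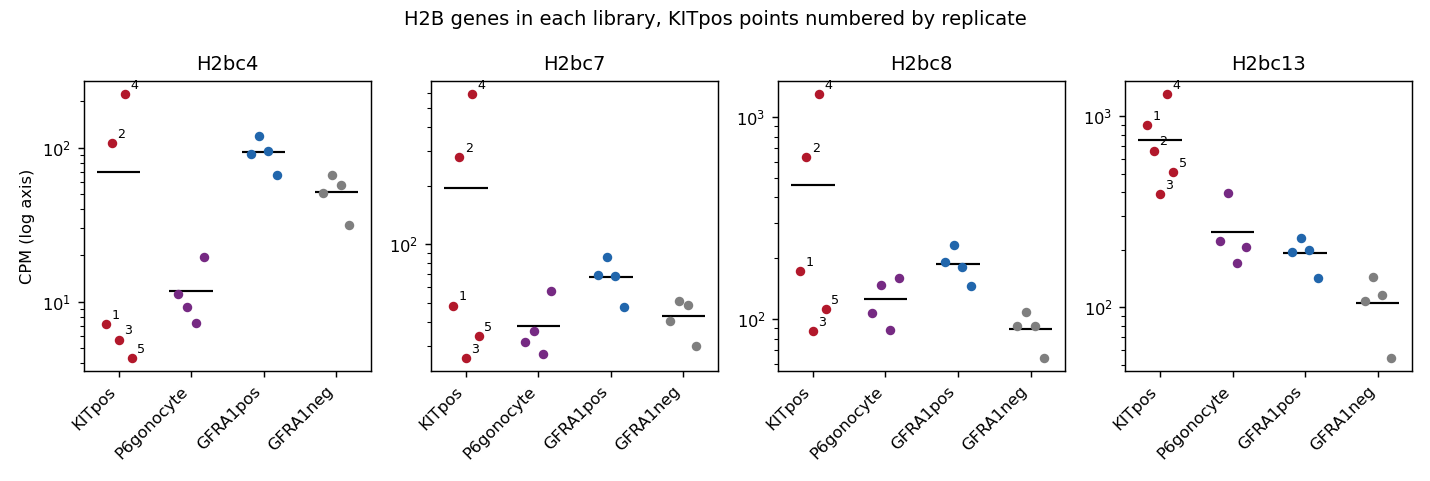
Level of H2bc4, H2bc7, H2bc8 and, for contrast, H2bc13 in each library (points, CPM, log axis) with the group mean (bar), with KITpos points numbered by replicate. In the first 3 genes KITpos replicates 2 and 4 stand apart, at 107 and 222 CPM in H2bc4, and in H2bc13 they do not.

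Linker histones share little sequence with each other and are given gene by gene. H1f4 shares 24.5% of its stretches of the read length with other members, 396 of them with the H2B gene H2bc6. H1f1, the H1.1 subtype, stood at 1483, 1102, 1075, 1781 and 832 CPM in KITpos libraries, 221, 351, 176 and 151 CPM in P6gonocyte libraries, 274, 336, 282 and 206 CPM in GFRA1pos libraries, and 139, 184, 151 and 91.5 CPM in GFRA1neg libraries. KITpos was above all other libraries, P6gonocyte overlapped both others, and GFRA1pos was above GFRA1neg. The log2 fold change of KITpos was 3.15 ± 0.28 against GFRA1neg (SE, adjusted p = 4.6e-08, edgeR) and 2.19 ± 0.27 against GFRA1pos (adjusted p = 1.9e-06, edgeR). GFRA1pos minus GFRA1neg was 0.96 ± 0.27 (adjusted p = 0.02, edgeR), a call lost without GFRA1pos replicate 2 (adjusted p = 0.0664), GFRA1neg replicate 1 (0.0514) or GFRA1neg replicate 4 (0.075).

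H1f2 stood at 206, 189, 109, 339.6 and 85.2 CPM in KITpos libraries, 41.8, 56.6, 39.6 and 56.6 CPM in P6gonocyte libraries, 56.5, 65.8, 59.0 and 31.8 CPM in GFRA1pos libraries, and 35.8, 42.1, 51.4 and 26.6 CPM in GFRA1neg libraries. It was higher in every KITpos library than in any other, with a log2 fold change of 2.25 ± 0.33 against GFRA1neg (SE, adjusted p = 1.7e-05, edgeR). H1f4 was higher in KITpos than in GFRA1neg cells by 1.33 ± 0.28 (SE, adjusted p = 0.00071, edgeR), and H1f3 was not called, at 0.56 ± 0.36 (adjusted p = 0.22, edgeR).

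H1f5, another replication-dependent subtype, had a different order. It stood at 8.12, 3.48, 5.06, 12.1 and 1.91 CPM in KITpos libraries, 11.9, 14.2, 15.1 and 14.6 CPM in P6gonocyte libraries, 30.1, 28.2, 34.0 and 21.2 CPM in GFRA1pos libraries, and 5.46, 6.24, 6.12 and 3.06 CPM in GFRA1neg libraries. GFRA1pos lay above every other library. The log2 fold change was -2.21 ± 0.35 for KITpos against GFRA1pos (SE, adjusted p = 4.2e-05, edgeR) and 2.44 ± 0.38 for GFRA1pos against GFRA1neg (adjusted p = 0.00022, edgeR). P6gonocyte minus GFRA1pos was -1.02 ± 0.36 (adjusted p = 0.032, edgeR), but the adjusted p was 0.0544 to 0.0818 without any 1 of the 4 P6gonocyte libraries or of GFRA1pos replicates 1, 2 and 3.

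H1f0, the replacement linker histone made outside S phase, stood at 75.5, 54.8, 44.6, 86.6 and 57.3 CPM in KITpos libraries, 58.3, 73.7, 55.2 and 58.8 CPM in P6gonocyte libraries, 40.4, 42.1, 31.1 and 29.7 CPM in GFRA1pos libraries, and 35.6, 28.9, 34.7 and 19.8 CPM in GFRA1neg libraries. KITpos and P6gonocyte overlapped and both lay above the Kit-negative adult groups. It was higher in KITpos than in GFRA1neg by 1.10 ± 0.20 (SE, adjusted p = 0.00018, edgeR) and higher in P6gonocyte than in GFRA1pos by 0.78 ± 0.21 (adjusted p = 0.0063, edgeR). H1f10 was higher in KITpos than in GFRA1neg by 1.47 ± 0.44 (adjusted p = 0.01, edgeR), which was not called without KITpos replicates 2 and 4, at 0.97 (adjusted p = 0.0977). H1f8, the oocyte linker histone, stood at 0.341 to 2.55 CPM in all 17 libraries and was not called in any of the 4 comparisons, with adjusted p of 0.15 to 0.75 (edgeR).

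H1f6 and H1f7 encode the testis linker histones H1t and H1T2. H1f6 stood at 91.7, 62.5, 52.7, 82.2 and 46.3 CPM in KITpos libraries, 13.1, 18.8, 10.3 and 7.28 CPM in P6gonocyte libraries, 16.2, 20.7, 15.9 and 23.4 CPM in GFRA1pos libraries, and 33.5, 124, 29.9 and 15.9 CPM in GFRA1neg libraries. KITpos was above P6gonocyte and GFRA1pos throughout and overlapped GFRA1neg, of which replicate 2 was the highest library of all. That library also had the highest summed spermatocyte markers, at 1714 CPM against 548 to 644 CPM in the other GFRA1neg libraries, and the part of spermatocyte transcripts in its H1f6 level was not tested. KITpos minus GFRA1pos was 1.81 ± 0.44 (SE, adjusted p = 0.002, edgeR). In that comparison 4 of 8 spermatocyte markers were also higher and 0 lower, with a summed level of 535 to 873 CPM in KITpos and 276 to 903 CPM in GFRA1pos libraries, and their part in the H1f6 difference was not tested. GFRA1pos minus GFRA1neg was -1.42 ± 0.45 (adjusted p = 0.039, edgeR), and the call was lost without GFRA1neg replicate 2 (-0.47, adjusted p = 0.349) and without each of GFRA1pos replicates 1 to 4 (adjusted p = 0.0652 to 0.1).

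H1f7 stood at 16.0, 12.9, 7.13, 10.1 and 15.4 CPM in KITpos libraries, had 0 counts in all 4 P6gonocyte libraries, and stood at 2.31, 35.3, 3.42 and 16.7 CPM in GFRA1pos libraries and 11.3, 28.8, 6.59 and 6.91 CPM in GFRA1neg libraries. The GFRA1pos mean of 14.4 CPM was 156-fold a floor of 3 counts over the P6gonocyte group, 0.0924 CPM. That mean rested mostly on GFRA1pos replicates 2 and 4. H1f7 was lower in P6gonocyte than in GFRA1pos cells (adjusted p = 0.00012, edgeR). The adult groups overlapped. Spermatid markers moved with it: 7 of 8 were lower in P6gonocyte than in GFRA1pos cells, Prm1 had 0 counts in every P6gonocyte library, and GFRA1pos replicates 2 and 4, the 2 highest of that group in H1f7, were also the 2 highest in summed spermatid markers. Their part in the H1f7 level was not tested.

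KITpos minus GFRA1pos split the core types. Among all genes tested 48.6% were called, 24.9% higher and 23.7% lower in KITpos cells, and of the 72 histone genes 25 were higher and 17 lower. Rises fell on 5 H1, 11 H2A and 9 H2B genes and on no H3 or H4 gene, and falls on 1 H1, 3 H2A, 2 H2B, 5 H3 and 6 H4 genes. Medians were 0.70 for H1, 1.33 for H2A, 1.52 for H2B, -0.59 for H3 and -0.38 for H4, and 0.00 over the 72 genes, beside 0.07 over all genes tested. Among the 22 members with at most 10% of shared stretches, 9 were higher and 7 lower. Their 5 H2A genes had 2 higher and 2 lower, with a median of 0.02. Their 5 H2B genes also had 2 higher and 2 lower, with a median of -0.03. Of their 3 H4 genes 2 were lower, and they held 0 H3 genes. GFRA1pos libraries enter this comparison and the next 2, so the comparisons share samples.

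H4c4 shares no stretch of the read length with another member, and made up 627 of the 928 CPM of summed H4 in GFRA1pos libraries, so that the sum follows it more than the other H4 genes. It stood at 379, 296, 219.8, 437 and 133 CPM in KITpos libraries, 177, 260.2, 179 and 160.25 CPM in P6gonocyte libraries, 639, 655, 726 and 489 CPM in GFRA1pos libraries, and 335, 337, 377 and 226 CPM in GFRA1neg libraries. All GFRA1pos libraries lay above all others, and KITpos overlapped GFRA1neg and P6gonocyte. The log2 fold change of KITpos was -0.12 ± 0.25 against GFRA1neg (SE, adjusted p = 0.74, edgeR) and -1.10 ± 0.25 against GFRA1pos (adjusted p = 0.0014, edgeR). P6gonocyte minus GFRA1pos was -1.69 ± 0.27 (adjusted p = 0.00016, edgeR). GFRA1pos minus GFRA1neg was 0.98 ± 0.27 (adjusted p = 0.019, edgeR), and was not called without GFRA1pos replicate 3 (adjusted p = 0.0557) or GFRA1neg replicate 4 (0.069).

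H4c14, the H4 gene of the chromosome 3 cluster, also shares no stretch and was at a low level, with 1.40, 1.86, 2.07, 1.71 and 1.73 CPM in KITpos libraries, 3.61, 5.41, 4.45 and 3.71 CPM in P6gonocyte libraries, 17.1, 17.6, 19.7 and 12.4 CPM in GFRA1pos libraries, and 3.10, 5.04, 2.31 and 1.09 CPM in GFRA1neg libraries. GFRA1pos was again above all others without overlap. Its log2 fold change was -3.24 ± 0.34 for KITpos against GFRA1pos (SE, adjusted p = 2.9e-07, edgeR) and 2.52 ± 0.35 for GFRA1pos against GFRA1neg (adjusted p = 5.6e-05, edgeR).

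P6gonocyte minus GFRA1pos compares neonatal gonocytes with adult GFRA1-positive cells. Among all genes tested 39.2% were called, 17.3% higher and 21.9% lower in gonocytes, and of the 72 histone genes 1, H1f0, was higher and 36 were lower. In the same comparison 4 of 5 tested Sertoli cell markers were higher, with a summed level of 37.6 to 128 CPM in P6gonocyte against 10.8 to 13.8 CPM in GFRA1pos libraries, and 3 of 6 peritubular and fibroblast markers were higher, at 37.8 to 53.4 against 21.1 to 29.2 CPM. Their part in the histone levels was not tested. The genes that fell were 2 H1, 8 of 18 H2A, 6 of 19 H2B, 8 of 12 H3 and 12 of 13 H4 genes, with medians of -0.40 for H1, -0.70 for H2A, -0.48 for H2B, -1.02 for H3 and -1.95 for H4, and -0.93 over the 72 genes beside -0.05 over all genes tested. The 1 H4 gene not called was H4f16, at -0.03 ± 0.77 (SE, adjusted p = 0.98, edgeR), which lies on chromosome 6 outside the main clusters. H4f16 stood near the floor, at 0.550 to 1.92 CPM in P6gonocyte and 0.507 to 2.42 CPM in GFRA1pos libraries, so depth limits what its value means. Of the 13 H4 genes 12 had their lowest group mean in P6gonocyte. Falls were also found in H2bc4, at -2.99 ± 0.89 (SE, adjusted p = 0.013, edgeR), and H2bc9, given above, whereas H2bc14 was not called, at 0.43 ± 0.32 (adjusted p = 0.30, edgeR).

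GFRA1pos minus GFRA1neg compares the Kit-negative adult groups. Of the 72 genes 22 were higher in GFRA1pos cells, where 7.3% of all genes were, and 1, H1f6, was lower, where 6.84% of all genes were. The rises fell on 2 H1, 6 H2A, 4 H2B, 8 H3 and 2 H4 genes. All GFRA1pos libraries lay above all GFRA1neg libraries in 53 of the 72 genes, beside 12% of all genes tested, and below in 0, beside 11.3%; members with shared sequence are not independent here. Among all genes 14.1% were called in either direction. Medians were 0.57 for H1, 0.88 for H2A, 0.82 for H2B, 1.05 for H3 and 0.67 for H4, and 0.86 over the 72 genes beside -0.04 over all genes tested. The count depended on the fit: 13 were higher without GFRA1neg replicate 4, 42 with DESeq2's Wald test and 48 in an edgeR fit of these 2 groups alone. GFRA1neg replicate 4 was the lowest library of its group in all 5 summed types.

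H3 genes of the chromosome 3 cluster had log2 fold changes above 2 here. H3c14 and H3c15, identical in counts, stood at 73.8, 80.9, 51.5, 129 and 23.4 CPM in KITpos libraries, 96.8, 110.0, 102 and 99.2 CPM in P6gonocyte libraries, 187, 194, 201 and 149 CPM in GFRA1pos libraries, and 34.4, 66.7, 47.6 and 26.6 CPM in GFRA1neg libraries. GFRA1pos lay above all others and P6gonocyte lay above GFRA1neg. The log2 fold change was 2.06 ± 0.34 for GFRA1pos against GFRA1neg (SE, adjusted p = 0.00041, edgeR) and -1.35 ± 0.32 for KITpos against GFRA1pos (adjusted p = 0.0016, edgeR). H3c13 was higher in GFRA1pos than in GFRA1neg by 2.09 ± 0.34 (adjusted p = 0.00034, edgeR), but 77.1% of its stretches are shared, 299 of them with H3c15.

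By position, 54 members lay on chromosome 13 and 10 on chromosome 3 in the GRCm38.p6 annotation. In GFRA1pos minus GFRA1neg 9 of the 10 chromosome 3 genes were higher, beside 7.3% of all genes, with a median of 1.45, and 13 of the 54 chromosome 13 genes were, with a median of 0.85. The 10 hold 2 pairs with identical counts, so they are 8 distinct measurements, of which 7 were higher. In KITpos minus GFRA1pos 7 of the 10 chromosome 3 genes, or 6 of the 8 distinct measurements, were lower, beside 23.7% of all genes, and none was higher, beside 24.9%, with a median of -1.60, and 21 of the 54 chromosome 13 genes were higher and 10 lower, with a median of 0.34. The difference between clusters was not tested, and the clusters differ in which types they hold. The chromosome 3 gene not called in the first of these was H2bc21, at -0.95, which was the 1 member with its highest group mean in GFRA1neg and stood in GFRA1neg replicate 2 at 19.3 CPM against 1.98 to 6.59 CPM in the others.

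Over the 4 groups, 36 members had their highest mean in KITpos, 35 in GFRA1pos, 1 in GFRA1neg and 0 in P6gonocyte. For H2A and H2B the highest mean was in KITpos in 13 of 18 and 14 of 19 genes, and for H3 and H4 it was in GFRA1pos in 11 of 12 and 11 of 13 genes. The lowest mean was in GFRA1neg in 38 members and in P6gonocyte in 28.

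Genes that make, carry or stand in for these histones were read from lists of the pathway. Their counts are set beside the shares of all genes called higher and lower, which were 22.1% and 23% in KITpos minus GFRA1neg, 24.9% and 23.7% in KITpos minus GFRA1pos, 17.3% and 21.9% in P6gonocyte minus GFRA1pos, and 7.3% and 6.84% in GFRA1pos minus GFRA1neg. Slbp, which encodes the stem-loop binding protein, averaged 194 ± 18.5 CPM in KITpos, 189 ± 19.7 CPM in P6gonocyte, 121 ± 17.7 CPM in GFRA1pos and 68.7 ± 5.30 CPM in GFRA1neg libraries (SD, n = 5, 4, 4 and 4). It was higher in KITpos than in GFRA1neg by 1.5 ± 0.12 and in GFRA1pos than in GFRA1neg by 0.82 ± 0.12 (SE, adjusted p = 1.3e-08 and 0.00013, edgeR). Npat was higher in KITpos than in GFRA1neg by 0.98 ± 0.18 (adjusted p = 0.00019, edgeR) and was not called between GFRA1pos and GFRA1neg, at -0.05 ± 0.19 (adjusted p = 0.90, edgeR). Sympk, which encodes the scaffold symplekin of the histone cleavage complex, fell in KITpos against GFRA1neg, with a log2 fold change of -0.97 ± 0.13 (adjusted p = 5.0e-06, edgeR). The 14 genes of histone mRNA transcription and 3-prime end processing gave 4 rises and 3 falls in KITpos minus GFRA1neg, 4 and 2 in KITpos minus GFRA1pos, 7 and 1 in P6gonocyte minus GFRA1pos, and 1 and 1 in GFRA1pos minus GFRA1neg. The counts in both KITpos comparisons and in GFRA1pos minus GFRA1neg lie near those shares of all genes.

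Among the chaperones that carry histones to DNA, 19 of 20 were tested. In KITpos minus GFRA1neg 6 were higher and 4 lower, in KITpos minus GFRA1pos 6 and 5, in P6gonocyte minus GFRA1pos 11 and 1, and in GFRA1pos minus GFRA1neg 2 and 0. In both KITpos comparisons these counts lie near the shares of all genes given above. Nasp, whose protein binds H3 and H4, averaged 461 ± 118 CPM in KITpos, 579 ± 67.8 CPM in P6gonocyte, 191 ± 17.6 CPM in GFRA1pos and 172 ± 17.1 CPM in GFRA1neg libraries (SD, n = 5, 4, 4 and 4). It was higher in P6gonocyte than in GFRA1pos by 1.60 ± 0.17 (SE, adjusted p = 4.8e-06, edgeR), the direction opposite to that of the called H3 and H4 genes. Dnajc9 and Asf1b, both H3 and H4 chaperones, were higher in KITpos than in GFRA1neg by 1.93 ± 0.13 and 1.35 ± 0.16 (SE, adjusted p = 2.6e-09 and 1.1e-06, edgeR).

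Replacement variants, which are made outside S phase too, were not members. The 9 genes gave 6 rises and 2 falls in KITpos minus GFRA1neg, 7 and 2 in KITpos minus GFRA1pos, 3 and 1 in P6gonocyte minus GFRA1pos, and 1 and 0 in GFRA1pos minus GFRA1neg. H2ax, the H2A variant phosphorylated at DNA breaks, averaged 1737 ± 1067 CPM in KITpos and 278 ± 119 CPM in GFRA1pos libraries (SD, n = 5 and 4), and was higher in KITpos by 2.64 ± 0.42 (SE, adjusted p = 3.6e-05, edgeR). H3f3b, an H3.3 gene, was higher in KITpos than in GFRA1neg by 1.59 ± 0.11 (adjusted p = 2.0e-09, edgeR). The macroH2A genes fell in KITpos minus GFRA1neg, with log2 fold changes of -2.19 ± 0.19 for Macroh2a1 and -3.38 ± 0.36 for Macroh2a2 (SE, adjusted p = 4.2e-08 and 3.8e-07, edgeR).

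The S phase list holds genes of DNA replication, when these histones are made. Its summed level stood at 2939 to 3602 CPM in KITpos, 3483 to 4199 CPM in P6gonocyte, 2506 to 2799 CPM in GFRA1pos and 1522 to 1621 CPM in GFRA1neg libraries. The 24 genes gave 20 rises and 1 fall in KITpos minus GFRA1neg, 11 and 4 in KITpos minus GFRA1pos, 13 and 1 in P6gonocyte minus GFRA1pos, and 19 and 0 in GFRA1pos minus GFRA1neg. P6gonocyte libraries were above all GFRA1pos libraries in this sum and below all of them in summed H3 and H4, and the part of S phase content in the histone levels was not tested.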

How the data were processed

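Gene expression was measured by RNA sequencing. Per the labels' protocols, enzymes freed the cells, cDNA was amplified by the Nugen Ovation V2 system from RNA of the sorted cells, and Truseq V2 libraries were read from both ends over 101 bases. The deposited table holds the authors' raw counts per Entrez gene number, with no normalization that its values show. Per the submitters' processing notes the build was mm9, and TopHat2 2.0.4, Bowtie2 2.0.0-6, Trim Galore, DESeq2, Bowtie and DESeq were used, without their roles. For the counting program, strand setting and reads with several matches, details were not given in the sources used here, so counts of close copies and of antisense partners may be split or merged. The header of the column used for GFRA1pos replicate 1 has a P where the titles have an R, and it was assigned as the 1 column left over for that title.

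Symbols came from RefSeq's GRCm38.p6 tables for 23930 of 24013 rows, and 83 rows had no match. The test was edgeR's quasi-likelihood F-test (edgeR 4.0.16, R 4.3.3; TMM scaling, filterByExpr by group, 1 mean per group over all 17 libraries, Benjamini-Hochberg adjustment over 15451 genes, threshold 0.05), with a common BCV (biological variation) of 0.30. The step was tested on simulated data. Values marked SE are log2 fold changes. The histone type of a row is that of its older name. Shared stretches were computed from GENCODE M21 transcripts. Floors cover counting error only, whereas SD is the spread between libraries and SE comes from the edgeR fit, which includes that spread. Total counts ran from 5178352 to 12641907. Chi-square per degree of freedom was 3.89 to 46.5 over 28 pairs of replicates, where repeats of 1 library would give about 1.

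The members and lists were chosen with earlier results of these data known. Named members are every H1 gene, the testis and oocyte variants, the 3 most abundant of each core type, the 3 largest rises and falls of each comparison and the identical sets. H2bc6, H2bc7, H2bc8, H2bc11, H2bc13, H2bc18, H2bc21, H2ac11, H2ac13, H3c6 and H4f16 were named after their values were seen. Alternatives were RLE and upper-quartile scaling, other count filters, DESeq2 1.42.0, a fit of only the groups compared and the replicate number as a block. Further ones were identical rows collapsed and the 2 most abundant rows left out. Each library was also left out in turn, and only the comparisons that use its group were then tested. Unscaled totals were used as an alternative for the summed levels only.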

Additional observations from a re-analysis of the deposited data

Results flagged for a closer look

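In 10 of 148 groups of 4 or 5 libraries, 1 library lay far from the others relative to the range of its group, and chance would single out about 1 in 20 groups. The level of H1f6 in GFRA1neg replicate 2, 123.8 CPM, was above the 33.5 CPM of the next library. H2ac1 in GFRA1pos replicate 4, at 101.5 CPM, was below the other 3, which stood at 129 to 134 CPM. H2ac21 in KITpos replicate 1 reached 2.80 CPM, above the 1.04 CPM of the next library. H2bc9 in P6gonocyte replicate 2 reached 11.8 CPM, above the 6.11 CPM of the next. H4c11 stood at 32.3 CPM in GFRA1pos replicate 4 and at 11.75 CPM in GFRA1neg replicate 4, each below the rest of its group, and H4c3 stood at 16.5 CPM in GFRA1neg replicate 4, below the others. Summed H2A, at 1199 CPM, and summed H4, at 374 CPM, were highest in P6gonocyte replicate 2, and summed H4 was lowest in GFRA1neg replicate 4, at 327 CPM.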

How the results depend on the processing

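Among the histone genes named by rule, no change called in the main fit reversed direction in an alternative fit that tested it. Counts of members called were compared by size only. Changes not called in the main fit, genes named after their values were seen and genes of the pathway lists were not followed in these runs. Other scalings moved the median of all genes by less than 0.1 on the log2 scale. In GFRA1pos minus GFRA1neg, members called higher numbered 22 in the main fit and 42 with DESeq2. They numbered 48 in a fit of only these 2 groups and 38 without KITpos replicates 2 and 4. With any 1 GFRA1pos or GFRA1neg library left out, they numbered 13 to 27. The 1 member called lower there was lost (0) in the fit of 2 groups, with the replicate block, without KITpos replicates 2 and 4, without the 4 libraries highest in spermatid markers, and in 5 of the fits without 1 library, whose counts ran from 0 to 1. Without those 4 spermatid-rich libraries, a choice made after the data were seen, 3971 genes were called in P6gonocyte minus GFRA1pos, against 6060.0, and 1268 in GFRA1pos minus GFRA1neg, against 2185. With the 2 most abundant rows left out, summed levels in P6gonocyte, GFRA1pos and GFRA1neg libraries were 626, 718 and 463 CPM for H1, 1191, 2073 and 1087 CPM for H2A, 2681, 3146 and 1805 CPM for H2B, 294, 609 and 209 CPM for H3, and 368, 1256 and 670.5 CPM for H4, because fewer counts remain in the total. With every identical row counted, summed H2B was 2837 CPM in GFRA1pos, and summed H3 was 318 CPM in P6gonocyte, 632 CPM in GFRA1pos and 199 CPM in GFRA1neg libraries. Without H4c4, chosen after the data were seen, H2B over H4 averaged 38.2 in KITpos, 26.1 in P6gonocyte, 7.72 in GFRA1pos and 7.43 in GFRA1neg libraries, since the divisor is smaller. For the other moves the cause was not tested. Replicate numbers were not taken to pair the samples, since not every pair correlated: over 24 same-number pairs the correlation of deviations ran from -0.458 to 0.517, with a median of 0.0202. Between GFRA1pos and GFRA1neg it was 0.475, 0.517, 0.366 and 0.0329 for numbers 1 to 4, and GFRA1pos replicate 4 correlated best with GFRA1neg replicate 2, at 0.565. With the replicate block, members called higher and lower numbered 43 and 4 in KITpos minus GFRA1neg, 27 and 16 in KITpos minus GFRA1pos, 1 and 38 in P6gonocyte minus GFRA1pos, and 26 and 0 in GFRA1pos minus GFRA1neg. Single named genes lost their call 43 times, always in the same direction. Depth limits statements on H4c6, H1f8, H2ac21 and H4f16, each of which lay under the floor of 3 counts in 1 KITpos library.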
